A study of Mus musculus with 8 samples.

Results

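Nrf2 occupancy at the genes of the proteasome was examined in muscle satellite cells, which are the stem cells that repair skeletal muscle. The members were 48 protein-coding genes, fixed by name, that encode the subunits, activators, inhibitor and assembly chaperones of the proteasome. All 48 were found among the 21627 protein-coding genes that RefSeq places on the chromosomes with peaks. Satellite cells freshly isolated from the hindlimb of C57BL/6J mice were of 2 genotypes, Keap1-null and Nrf2-null. Chromatin immunoprecipitation with sequencing (ChIP-seq) used an Nrf2 antibody, and the 8 libraries were 2 of ChIP and 2 of input chromatin for each genotype, from bench 1 and bench 2. Not given in the labels are the age of the mice, the allele deleted, the driver of any Cre and whether the benches used separate animals. The series has no group with both genes intact, so Nrf2 occupancy in such cells was not measured. The Nrf2-null libraries used an Nrf2 antibody in cells labelled as lacking its target, and what their peaks reflect was not tested. The peak lists cannot check the cell type because no expression was measured.

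The proteasome degrades proteins marked with ubiquitin. Its 20S core is a barrel of alpha and beta rings with the cutting sites on the inside, and the 19S cap, made of a base and a lid, binds, unfolds and feeds in the substrate. Nrf2, encoded by Nfe2l2, partners with small Maf proteins at antioxidant response elements and is kept low by Keap1, which directs it to ubiquitination. Several proteasome genes are known to be induced through such elements by Nrf2 and by its relative Nfe2l1, the factor that raises proteasome genes when the proteasome is inhibited.

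The authors deposited 2 peak lists, one for each genotype, in which both Nrf2 ChIP libraries of the genotype were joined. The Keap1-null list held 469 peaks, of which 363 overlapped no Nrf2-null peak and are called Keap1-null-only, and the Nrf2-null list held 151. Each peak carries the −log10 p of enrichment in the first and in the second library, which do not name the bench, and an irreproducible discovery rate (IDR), in which lower means a more reproducible peak, and which depends both on how high the peak ranks and on how alike it ranks in both libraries. These values are the authors' and describe peaks within a list. A gene was counted as having a site when a summit lay inside it or within 10 kb of either end. Depth per library is unknown, and an absent peak shows only that none passed the authors' limit.

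Of the 48 proteasome genes, 5 had a site, namely Psmb3, Psmd1, Adrm1, Psmd3 and Psmd5, and all 5 sites were Keap1-null-only. Over all protein-coding genes 1.48% had a site from the Keap1-null list and 1.31% a Keap1-null-only one. The promoters of Adrm1 and Psmb3 are shown first, since in these 2 members the summit fell within the promoter window that RefSeq sequence was given for. Each is the 250 bases before the gene start on the coding strand, written 5′ to 3′, from build GRCm38.p6 (mm10), at chr2:180171338-180171587 and chr11:97703184-97703433, both on the plus strand. Capitals mark TGACNNNGC, the core of the antioxidant response element, and CCAAT, the element of the factor NF-Y, with both strands searched.
Adrm1: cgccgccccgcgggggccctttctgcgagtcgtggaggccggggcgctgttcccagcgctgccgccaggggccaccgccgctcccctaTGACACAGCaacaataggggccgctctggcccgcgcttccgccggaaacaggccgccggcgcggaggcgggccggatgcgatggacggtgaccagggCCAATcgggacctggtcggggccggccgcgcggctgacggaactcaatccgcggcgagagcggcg
Psmb3: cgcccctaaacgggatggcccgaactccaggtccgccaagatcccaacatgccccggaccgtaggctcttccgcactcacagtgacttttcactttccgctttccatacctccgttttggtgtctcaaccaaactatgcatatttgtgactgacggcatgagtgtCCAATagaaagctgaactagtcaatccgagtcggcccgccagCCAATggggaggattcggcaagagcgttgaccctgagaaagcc

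In the Adrm1 promoter the single match to the response element core read TGACACAGC and stood at positions -162 to -154 from the gene start (chromosome 2, 180171426 to 180171434). Its centre lay 17 bp from the peak summit, which is base 76 of the printed sequence. The Adrm1 sequence also held 1 CCAAT, whose centre was 112 bp from the summit. The Psmb3 promoter held no match to the response element core. Its summit, base 83 of the printed sequence, lay 85 and 127 bp from the centres of its 2 CCAAT matches. The strongest proteasome sites by the smaller −log10 p were thus 1 with and 1 without a match to the response element core in the window. Both peaks begin before the window, so part of each was not searched. A match is a description of letters, and none of these matches was tested for binding.

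In the 20S core, 1 of 17 genes had a site. Psmb3 encodes a subunit of the beta ring that has no cutting site of its own. Its peak (chromosome 11, 97703076 to 97703559) reached −log10 p 37.9 in the first and 20.5 in the second library (IDR 0.000591). The summit lay 168 bp before the gene start, and the summits of the 2 libraries were 13 bp apart. Within 10 kb of this summit RefSeq also lists Pcgf2, a Polycomb group gene, 832 bp away, and a tRNA gene 744 bp away. Psmb3 was the nearest protein-coding gene.

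None of the 7 alpha ring genes and none of the other 6 beta ring genes had a site. Among the latter, Psmb5, Psmb6 and Psmb7 encode the cutting subunits of the constitutive proteasome, and their nearest Keap1-null-only summits lay 12571, 450 and 2792 kb away. Among the alpha genes, which form the gated outer rings, Psma1 was closest, at 83.0 kb, and Psma7 lay 129 kb from its nearest summit, which is the one at Adrm1. Psma6 was farthest, at 16604 kb.

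The immunoproteasome genes Psmb8, Psmb9 and Psmb10 encode cutting subunits that replace the constitutive ones in immune cells and under interferon. None of the 3 had a site. Psmb9 and Psmb8 were nonetheless the 2 members next nearest to a Keap1-null-only summit after those with a site, at 61.0 and 77.2 kb, and it was the same summit for both. That summit lay inside the spans of Brd2 and H2-DMa on chromosome 17. Psmb10, on chromosome 8, was 659 kb from its nearest summit.

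In the 19S base, 2 of 10 genes had a site. Adrm1 encodes the ubiquitin receptor Rpn13. Its peak (chromosome 2, 180171237 to 180171558) reached −log10 p 22.7 and 24.7 (IDR 0.00120), and the summit lay 175 bp before the gene start. This peak was slightly higher in the second library, unlike that of Psmb3. The lncRNA gene Gm29886 had an end 163 bp from the same summit, closer than Adrm1, and the protein-coding genes Lama5 and Osbpl2 were 4960 and 8731 bp away, so nearness alone does not assign the site to Adrm1.

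Psmd1 encodes Rpn2, the large scaffold protein of the base. Its peak (chromosome 1, 86064410 to 86065017) reached −log10 p 12 and 9.88 (IDR 0.0185). The summit lay inside the gene, 230 bp after the start. The peak called in the first library began after the gene start, whereas that of the second library reached before it. The only other gene within 10 kb was 2810459M11Rik, at 9393 bp. The 6 ATPase genes, Psmc1 to Psmc6, which encode the ring that unfolds substrates, had no site. Psmc5 was the closest of them, at 326 kb, and Psmd2 and Psmd4, another scaffold and another ubiquitin receptor, were 2257 and 690 kb away.

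In the 19S lid, 1 of 8 genes had a site. Psmd3 encodes Rpn3, a structural lid subunit. Its peak (chromosome 11, 98682283 to 98682763) reached −log10 p 8.52 and 11 (IDR 0.0386), the lowest of the 5 sites in the first library and the highest IDR, while in the second library Psmd1 and Psmd5 were lower. The summit lay 4 bp outside the nearer gene end, and the summits of the 2 libraries were 71 bp apart. Gsdma, a gasdermin gene, was 4842 bp away. The strand of Psmd3 was not listed in the table used, so its gene start was not told apart from its other end. Psmd14, which encodes the lid enzyme that removes ubiquitin chains, was 10887 kb from its nearest Keap1-null-only summit, and Psmd7, its partner subunit, 177 kb.

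Among the chaperones of the 19S base, 1 of 3 genes had a site. Psmd5 encodes S5b, a chaperone that helps assemble the ATPase ring. Its peak (chromosome 2, 34869633 to 34870075) reached −log10 p 18 and 10.0 (IDR 0.00891). The summit lay inside the gene, 1158 bp after the start, the farthest from a gene end among the 5. Exons and introns could not be told apart in the table used. Cutal was 4589 bp away. Of the other base chaperones, Psmd9 was 89.0 kb and Psmd10, on the X chromosome, 66523 kb from the nearest Keap1-null-only summit.

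None of the 5 chaperones of the 20S core had a site. Psmg1, Psmg2 and Psmg4, which with Psmg3 guide assembly of the alpha ring, were each 155 to 165 kb from a Keap1-null-only summit. Psmg3 was 2720 kb and Pomp, the maturation factor of the core and a gene described as an Nrf2 target in other cells, 1528 kb away. The activator genes also had none. Psme1 and Psme2, the neighbouring genes of the interferon-induced PA28 activator, were 11607 and 11598 kb away, Psme3 2634 kb, and Psme4, which encodes the PA200 activator, 947 kb. Psmf1, encoding the inhibitor PI31, was 361 kb away.

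**Figure D1:**
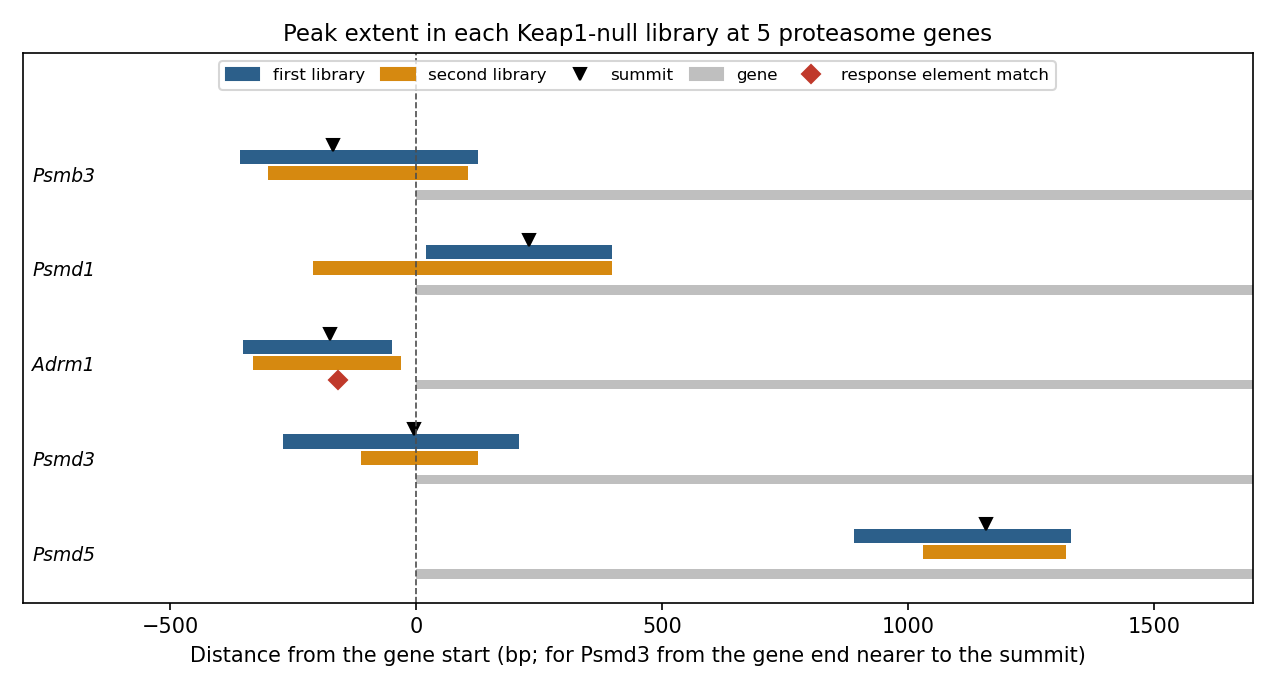
Extent of the peak in the first (blue) and second (orange) Keap1-null library at the 5 proteasome genes with a site, in bp from the gene start (for Psmd3 from the gene end nearer to the summit). Triangles mark the joined summit, grey bars the gene and the diamond the match to the response element core at Adrm1. The summits at Psmb3 and Adrm1 lie 168 and 175 bp before the start, that at Psmd3 4 bp from the gene end, and those at Psmd1 and Psmd5 230 and 1158 bp inside the gene.

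At 4 of the 5 genes the summit lay within 1 kb of a gene end, and the median distance was 175 bp. Under the same rule the other protein-coding genes gave 299 pairs of a gene and a Keap1-null-only summit, with a median distance of 6933 bp and 43 pairs (14.4%) within 1 kb. The rule itself limits the distance to 10 kb outside a gene, and inside a gene the distance can grow with gene length. The difference was not tested, and 5 sites are few. Among the members just inside and just outside the 10 kb limit, the farthest site lay 1158 bp from its gene end and the next gene, Psmb9, was 61.0 kb away. No member had a nearest summit between these distances, so a limit of 5 or 50 kb gave the same 5 genes. The 5 sites lay on chromosomes 1, 2 and 11. Those at Psmb3 and Psmd3 were 979 kb apart, and those at Psmd5 and Adrm1 were at distant places on chromosome 2, so no 2 of the 5 genes shared a peak.

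**Figure D2:**
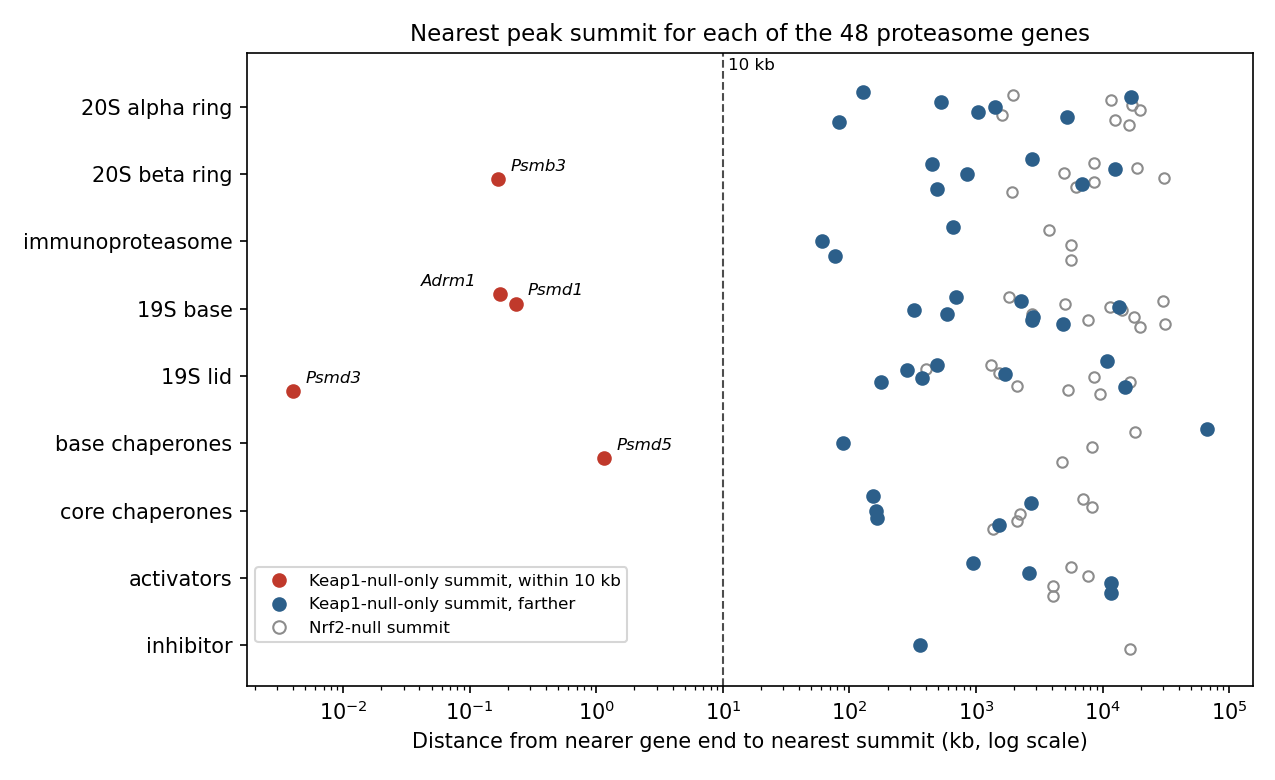
Distance in kb (log scale) from the nearer end of each of the 48 genes to the nearest Keap1-null-only summit (filled) and Nrf2-null summit (open), by role. The 5 genes within 10 kb (dashed line) are named, and the other 43 genes lie at 61.0 kb or more.

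Counted together, sites were found at 5 of 48 proteasome genes (10.4%, exact Clopper-Pearson 95% interval 3.47 to 22.7, counting error only). The other protein-coding genes had a Keap1-null-only site at 278 of 21579 (1.29%, interval 1.14 to 1.45). Within 1 kb of a gene end, the count was 4 of 48 members and 0.217% of all protein-coding genes. Among genes with a listed start, a summit within 1 kb of the start was found at 3 of 41 members, Adrm1, Psmb3 and Psmd1, and at 0.232% of the 17273 protein-coding genes. Proteasome genes are shorter than most, with a median length of 11.9 kb against 17.3 kb, and had a median of 1 other protein-coding gene within 10 kb, as did all genes. For the 43 members without a site the median gap to a Keap1-null-only summit was 947 kb, and for protein-coding genes without a site in general it was 2121 kb. The members were chosen with earlier results of these data known, so no enrichment test was run and the shares are a description.

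The 19S genes with their chaperones had sites at 4 of 21 (19%, interval 5.45 to 41.9) and the 20S genes with the immunoproteasome at 1 of 17 (5.88%, interval 0.149 to 28.7). These intervals overlap widely, and the difference between core and cap was not tested. The remaining 10 genes, the core chaperones, activators and inhibitor, had none. The share over all protein-coding genes is 1.31%. At that background, none among 10 genes is no contrast with the other roles.

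**Figure D3:**
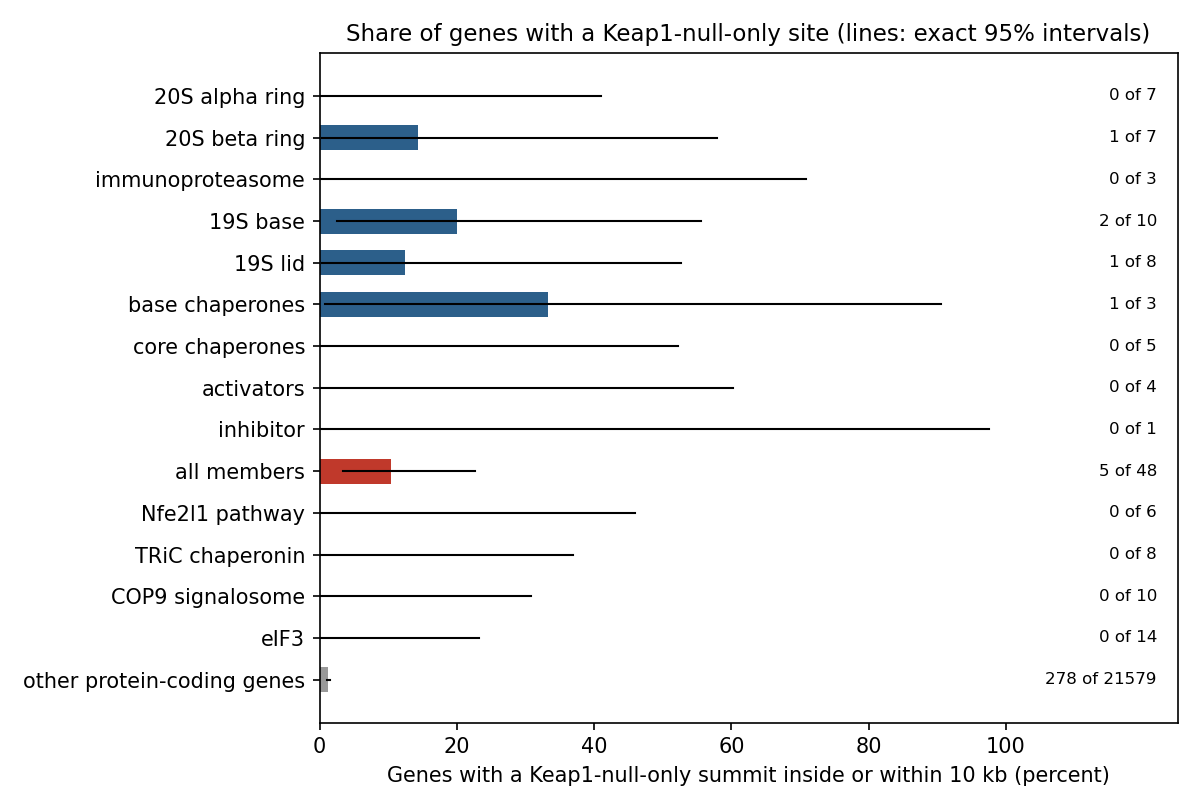
Percent of genes with a Keap1-null-only summit inside the gene or within 10 kb, for each role, all members, the Nfe2l1 pathway, 3 comparison complexes and all other protein-coding genes. Lines are exact 95% intervals and the numbers are genes with a site of genes in the list. The members stand at 5 of 48 and the other protein-coding genes at 278 of 21579, and the intervals of the single roles are wide.

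No proteasome gene had an Nrf2-null site. The count was 0 of 48 (interval 0 to 7.40%), against 0.287% of all protein-coding genes. At that background a count of 0 is no contrast between the genotypes. The member closest to an Nrf2-null summit was the lid gene Psmd13, at 399 kb, and the median over the members was 7280 kb. The genes with a Keap1-null-only site were 1837 kb (Adrm1) to 11345 kb (Psmd1) from the nearest Nrf2-null summit. The Nrf2-null list is shorter than the Keap1-null list, and the part of that difference due to depth was not tested.

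The 5 sites spanned much of the range of Keap1-null-only peaks. Ordered by IDR among the 363, Psmb3 ranked 42, Adrm1 59, Psmd5 173, Psmd1 244 and Psmd3 330. The median of the smaller −log10 p was 10.0 over the 5 sites and 11 over all 363 peaks. Over the other 37 Keap1-null-only peaks that lay as near as 1 kb to the end of a protein-coding gene it was 11.1. By IDR, Psmb3 and Adrm1 thus stood in the upper part of the list, Psmd5 near its middle and Psmd1 and Psmd3 below it. Ordered by the smaller −log10 p, Psmd5 ranked 213 and so fell below the middle. The first library gave the higher value at Psmb3, Psmd1 and Psmd5 (3 of 5) and the second at Adrm1 and Psmd3, while the first library was higher at 296 of all 363. With the IDR limited to 0.01, the sites at Psmb3, Adrm1 and Psmd5 were left, 3 of 48 members (6.25%) against 0.698% of all protein-coding genes.

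**Figure D4:**
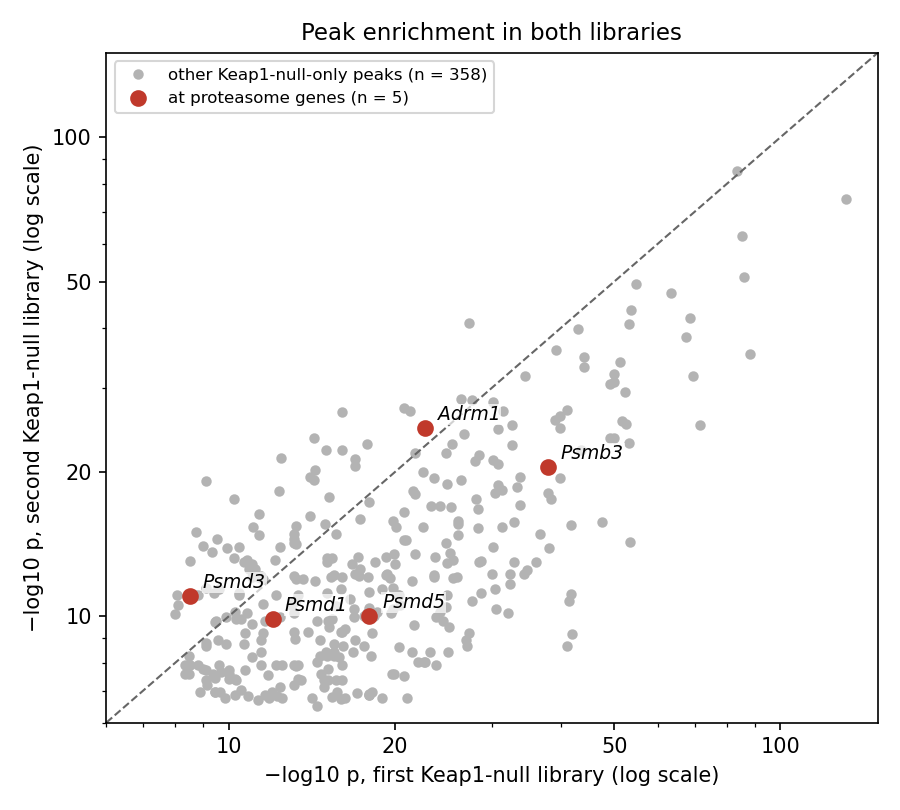
−log10 p of enrichment in the first against the second Keap1-null library (log axes) for the 363 Keap1-null-only peaks. Red points are the 5 peaks at proteasome genes and the dashed line marks equal values. Adrm1 and Psmd3 lie above the line, the other 3 below it, and of the 5 only Psmb3 and Adrm1 exceed 20 in both libraries.

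Response element letters occurred in proteasome promoters about as often as in others. RefSeq promoter windows, from 250 bases before to 50 after the gene start, were at hand for 41 of the 48 members. No window was at hand for Psmb1, Psmb2, Psmb7, Psmc3, Psmd3, Psmd7 and Psmg2. TGACNNNGC was found on either strand in 7 of 41 members (17.1%, interval 7.15 to 32.1), against 14.9% of the 17273 protein-coding genes with a window. Among the 4 members with both a window and a site, Adrm1 alone held a match. The windows of Psmb3, Psmd1 and Psmd5 held none. Of these, only the window of Psmb3 contained the summit, so for Psmd1 and Psmd5 the bases under the summit were not searched.

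The other 6 matches stood in promoters without a peak, and 29 bases around each (22 for Psmd12, whose match is at the edge of the window) are shown beside those of Adrm1 to let the letters be compared. They are on the coding strand of each gene, written 5′ to 3′, from build GRCm38.p6, with the match in capitals. On the opposite strand the same motif reads GCNNNGTCA, as in Psmc6, Psmd12 and Psme4.
Adrm1: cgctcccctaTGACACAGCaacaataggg
Psmb5: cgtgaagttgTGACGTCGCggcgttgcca
Psmb6: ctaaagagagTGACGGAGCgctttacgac
Psmc6: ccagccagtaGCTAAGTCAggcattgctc
Psmd12: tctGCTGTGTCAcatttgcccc
Psmd9: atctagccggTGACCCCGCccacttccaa
Psme4: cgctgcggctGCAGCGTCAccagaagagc

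These stretches lie at chr2:180171416-180171444 (plus strand) for Adrm1, chr14:54618024-54618052 (minus strand) for Psmb5 and chr11:70525338-70525366 (plus strand) for Psmb6. Those of Psmc6, Psmd12, Psmd9 and Psme4 are on the plus strand at chr14:45329587-45329615, chr11:107479278-107479299, chr5:123228149-123228177 and chr11:30771758-30771786. The matches in Psmb5, Psmb6, Psmd9 and Psme4 lay within 50 bases of the gene start, whereas those in Psmc6, Psmd12 and Adrm1 began at -227, -247 and -162. Holding the core letters thus did not go with a listed peak at 6 of these 7 genes.

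Other motifs also showed no large departure from the background of all promoters. TGACTCAGC, the case of TGACNNNGC that also holds the AP-1 letters, was found in 0 of 41 members. It was found in 0.481% of all protein-coding genes with a window. The AP-1 motif TGACTCA alone occurred in Psmd9 only (2.44% against 5.44%). CGCATGCG, the element of nuclear respiratory factor 1, occurred in Psma2 and Psmg1 (4.88% against 2.79%), and CCAAT in 14 of 41 (34.1% against 42.7%). The median GC content of the windows was 60.2% for the 4 members with a site and 59.0% for the 40 windows of the other members, against 56.7% overall.

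For comparison, across all protein-coding genes 15 promoter windows held a Keap1-null-only summit, and 9 of these (60.0%, interval 32.3 to 83.7) had a TGACNNNGC match, against 13% of all 21044 windows. The centre of the nearest match lay 2 to 158 bp from the summit in these 9, with a median of 9 bp, and at Adrm1 it was 17 bp. Psmb3 was among the 6 windows with a summit and no match. No Nrf2-null summit fell in any promoter window of a protein-coding gene. Among the 363 Keap1-null-only peaks 15 did so, and the Nrf2-null list held 151 peaks. The lists differ in length and depth per library is unknown. A contrast between the genotypes in this count was not tested.

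**Figure D5:**
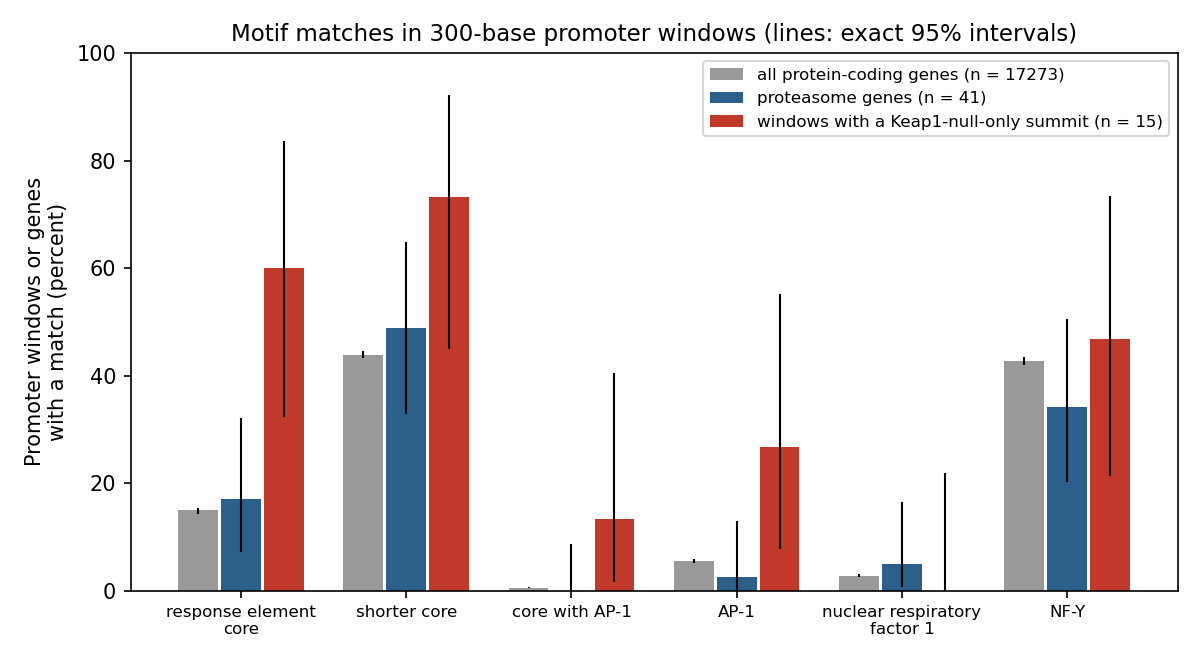
Percent of genes, or of promoter windows with a Keap1-null-only summit, that hold each motif in the 300 bases around the gene start. Lines are exact 95% intervals. For the response element core the proteasome genes (17.1%) stand near all genes (14.9%). Counted by window rather than by gene, 9 of 15 windows with a summit hold it, against 13% of all windows.

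The genes of the Nfe2l1 pathway, through which proteasome inhibition raises proteasome genes, had 0 of 6 with a Keap1-null-only site, where the share over all protein-coding genes is 1.31%. Nfe2l1 itself was 873 kb from the nearest Keap1-null-only summit, and Ddi2, the protease that processes it, 124 kb. Of 3 other large complexes made in most cells, the TRiC chaperonin, the COP9 signalosome and the translation factor eIF3, the last 2 related to the lid in their subunits, 0 of 32 genes had a Keap1-null-only site (interval 0 to 10.9%). This interval includes both the share of the proteasome genes and the 1.31% of all protein-coding genes. At that background a count of 0 is no contrast with the proteasome, and no difference between the complexes was tested.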

How the data were processed

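The authors deposited 1 peak list per genotype for Nrf2 ChIP-seq. Per the submitters' processing notes the tools were MACS2 2.2.7.1, SAMtools 1.6, BWA 0.7.17 and Trim Galore 0.6.10, and the build was mm10; for settings, use of the inputs and the IDR version, nothing was given in these sources. Each deposited peak carries the −log10 p of each library, the smaller of both, and as a reproducibility score the −log10 IDR, all identified from the column layout because the files have no header. No read counts were at hand, so depth is unknown.

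Summits and peaks (1-based) were joined to the RefSeq table of GRCm38.p6. A Keap1-null peak was shared when it overlapped an Nrf2-null peak by at least 1 bp. Shares carry exact 95% Clopper-Pearson intervals. Motifs were searched on both strands of RefSeq promoter windows. The placing of summits at genes and the motif search were tested on simulated data, and the other steps were not. With 1 joined list per genotype no replicate test was possible. The members, lists and motifs were chosen with earlier results of these data known. Named genes are members with a site, the next 5 by distance, members with a response element match and no site, and genes sharing a site. Other members are named to account for each role. Genes of the fixed lists were to be named if they had a site. None had one, and Nfe2l1 and Ddi2 are named outside this rule. A list of proteasome partners is not reported here. Alternatives were other distances, assignment to the nearest gene, IDR of at most 0.01, whole peaks, other sharing rules and other motif forms. Python 3.11.15, pandas 2.3.3, numpy 2.4.6, SciPy 1.17.1 and matplotlib 3.10.9 were used.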

Additional observations from a re-analysis of the deposited data

How the results depend on the processing

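At an IDR of at most 0.01 the number of proteasome genes with a Keap1-null site fell from 5 to 3, the number with a Keap1-null-only site likewise from 5 to 3, and the percent of all protein-coding genes with a Keap1-null site from 1.48 to 0.791; fewer peaks follow from the limit itself. The genes lost were Psmd1 and Psmd3. The other 6 alternatives to the counting rule and both other sharing rules gave 5 members with a Keap1-null-only site, and all 7 counting alternatives gave 0 with an Nrf2-null site. Over all protein-coding genes, the percent with a Keap1-null site was 1.02 at 1 kb, 1.23 at 5 kb and 3.70 at 50 kb. It was 0.953 when gene bodies farther than 10 kb from an end were left out and 1.19 with the nearest gene alone. For Keap1-null-only sites the same shares were, in this order, 0.916, 1.10, 3.31, 0.855 and 1.06. The median distance of 175 bp was the same under its 3 alternatives. Those of 1 and 50 kb kept the same 5 sites and so could not change it. Only the IDR limit, which left 3 sites, could. The number of member promoters with a response element match, 7, became 20 with the shorter core TGACNNNG, 0 with TGACTCAGC and 6 with only the bases before the start. The shorter core was found in 48.8% of members with a window and in 43.9% of all protein-coding genes with one. For TGACTCAGC the share over all these genes was 0.481%. No share over all genes is given for the count of 6.

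No paired analysis was possible because both libraries of a genotype are joined in one list whose columns carry no bench number. Single replicates could not be left out either, since a listed peak needs both libraries. With depth unknown, absent peaks cannot be read as absent binding.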

Other observations

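The 9 promoter windows with both a Keap1-null-only summit and a TGACNNNGC match belonged to Arhgdib, Oser1, Fetub, Prdx1, Txnrd1, Adrm1, Srsf2, Pacsin2 and Srxn1, with the match centre 2, 6, 7, 7, 9, 17, 40, 64 and 158 bp from the summit. Txnrd1, Prdx1 and Srxn1 encode enzymes of the thioredoxin and peroxiredoxin system, and Srsf2 a splicing factor. The 6 windows with a summit and no match were those of Aox1, Zwint, Cltc, Psmb3, Zscan12 and Clip1. These genes were named after their values were seen, and a window that holds a summit is not shown to belong to the gene that a peak acts on.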
